A study of Arabidopsis thaliana with 8 samples.

Results

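Wild-type Arabidopsis thaliana seedlings that spent their last day in liquid medium were compared with wild-type seedlings that stayed on solid medium, across all genes that the arrays could name. The comparison used the 2 arrays titled as wild type in liquid medium and the 2 titled as wild type on solid medium, 4 of the 8 arrays of the study, and covered 16554 genes. All seedlings were of the Columbia background, were 7 days old and had first grown for 6 days on vertical plates of solid MS medium under 16 h of light and 8 h of darkness a day. For the last 1 day, the solid-medium seedlings remained on their plates in the same light cycle without treatment, and the liquid-medium seedlings were shaken in liquid MS medium under continuous light. Medium, transfer, shaking and light therefore differed together and cannot be told apart. Each array held RNA of a pool of about 120 whole seedlings, and p-values measure the spread between such pools. The wild type was a backcrossed sister of the fh1-1 line, a mutant of the actin-nucleating formin FH1. The other 4 arrays, which shared no array with the wild-type pair, held fh1-1 on solid medium and wild type in the same liquid medium with 20 uM SMIFH2, an inhibitor of formins. Whether the liquid control held the solvent of SMIFH2 is not given in the sources used here.

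Some background helps to place the genes below. Most subunits of the photosystems and of their light-harvesting antenna, and the enzymes of the Calvin cycle, are encoded in the nucleus, and their transcripts respond to light. Roots and hypocotyls of Arabidopsis hold endoplasmic reticulum bodies filled with beta-glucosidases such as PYK10, which form complexes with jacalin-related lectins. The primary wall of growing cells is remodelled by expansins, xyloglucan endotransglucosylases, pectin methylesterases and peroxidases, and the secondary wall of vessels and fibres is rich in xylan.

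The 8 arrays had similar distributions, with medians from 3.89 to 3.96 log2 intensity. Across genes, the 2 solid wild-type arrays correlated at 0.9898 and the 2 liquid ones at 0.9876, and the correlations between a solid and a liquid wild-type array ran from 0.9771 to 0.9809. The fh1-1 and SMIFH2 arrays correlated with one another at 0.9899 to 0.9904, which is as high as replicates of the wild-type groups, although they too differed in medium. They correlated with the wild-type arrays at 0.9518 to 0.9706, so these 4 arrays stood apart from the wild type whatever the medium. The RMA values here do not reach 0, so a gene at 0 cannot be recognised. The group means of shoot markers on solid wild-type arrays ran from 3.38 to 9.37 and those of root markers from 5.65 to 12.45, while all 3 measured pollen and flower markers averaged under 3 log2 units, where 6917 of all 16554 genes lay.

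In wild-type seedlings, 368 genes were higher and 411 were lower in liquid than on solid medium at an adjusted p under 0.05 (limma, Benjamini-Hochberg adjustment over all genes). These 779 genes were 4.71% of those tested, 2.22% higher and 2.48% lower. Of them, 172 rose and 179 fell by at least 2-fold. In all 779 the solid and liquid arrays did not overlap. Selection by a small adjusted p favours such genes, and their share over all genes was not counted, so this adds no support. The changes ranged from a fall of 3.07 to a rise of 5.01 log2 units, around a median of -0.03 over all genes. The count rested on single arrays: it was 284 without the second wild-type solid array, 488 without the second wild-type liquid array and 508 without the first solid array.

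**Figure D1:**
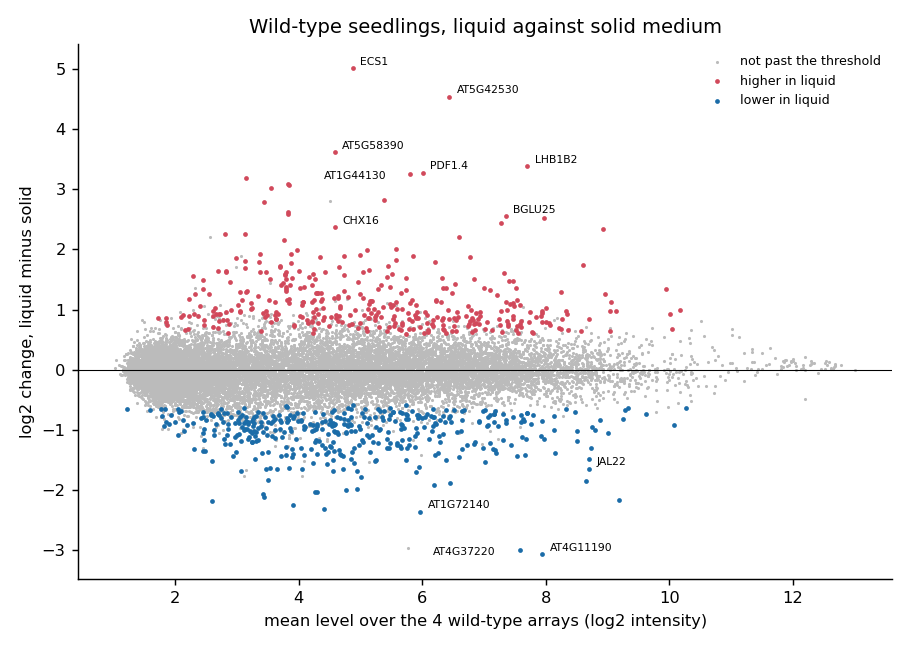
Change of each of 16554 genes in wild-type seedlings (vertical axis, log2 liquid minus solid) against its mean level over the 4 wild-type arrays (horizontal axis, log2 intensity); coloured points passed an adjusted p under 0.05. The 368 rises reach 5.01 log2 units and the 411 falls reach -3.07, and both lie at all but the highest levels.

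The largest rise belonged to ECS1 (AT1G31580), which encodes a wall-associated protein. It read 1.82 and 2.93 log2 units on the solid wild-type arrays and 8.13 and 6.64 on the liquid ones. Both liquid arrays lay far above both solid ones, a rise of 5.01 ± 0.47 (SE, 2 arrays a group, limma adjusted p = 0.00055). In fh1-1 on solid medium ECS1 stood at 7.02 and 6.44, already at the level of the liquid wild type. The antenna gene LHB1B2 (AT2G34420), a chlorophyll-binding protein of photosystem II, read 5.77 and 6.26 on solid medium and 9.31 and 9.49 in liquid. It rose by 3.38 ± 0.18 log2 units, or 10.4-fold (limma adjusted p = 4.6e-05).

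The defensin PDF1.4 (AT1G19610) went from 4.04 and 4.72 on solid medium to 7.64 and 7.66 in liquid, a 9.66-fold rise. The beta-glucosidase BGLU25 (AT3G03640) read 6.12 and 6.05 on solid medium against 8.45 and 8.82 in liquid, a 5.86-fold rise. For both genes the liquid arrays lay close together and well clear of the solid ones. CHX16, a cation/proton exchanger, rose by 2.37 ± 0.20 log2 units, from 3.71 and 3.1 to 5.79 and 5.76. The secreted peroxidases PRXCA and Prx37 rose by 2.25 ± 0.30 and 1.37 ± 0.28. The pectin methylesterase ATPMEPCRB, one of the enzymes that strip methyl groups from wall pectin, rose by 1.89 ± 0.18. KIN2, a cold- and abscisic acid-responsive gene, read 6.74 and 6.30 on solid medium and 8.28 and 7.98 in liquid, a rise of 1.61 ± 0.20.

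The beta-glucosidases BGLU45, which acts on lignin precursor glucosides, and BGLU33 rose by 1.88 ± 0.17 and 1.52 ± 0.18. The remaining largest named rises were GSTU20, a glutathione transferase (1.71 ± 0.26), RTFL14, a small peptide of the ROTUNDIFOLIA family (1.63 ± 0.26), CSA1, an immune receptor of the TIR type (1.53 ± 0.20), and SEC31A, a coat protein of vesicles leaving the endoplasmic reticulum (1.51 ± 0.25). The limma adjusted p of the 15 named rises lay between 4.6e-05 and 0.023. Without the second wild-type solid array, RTFL14, SEC31A and Prx37 had limma adjusted p of 0.051, 0.073 and 0.11. That of Prx37 was also 0.066 and 0.096 without the first or the second liquid wild-type array.

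Among genes known here only by their locus code, the rises of AT5G42530, AT5G58390 and AT1G44130 were the largest. AT5G42530 read 3.94 and 4.39 on solid medium and 9.30 and 8.12 in liquid, a rise of 4.54 ± 0.33 log2 units (limma adjusted p = 0.00016). AT5G58390 and AT1G44130 rose by 3.61 ± 0.25 and 3.25 ± 0.28.

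**Figure D2:**
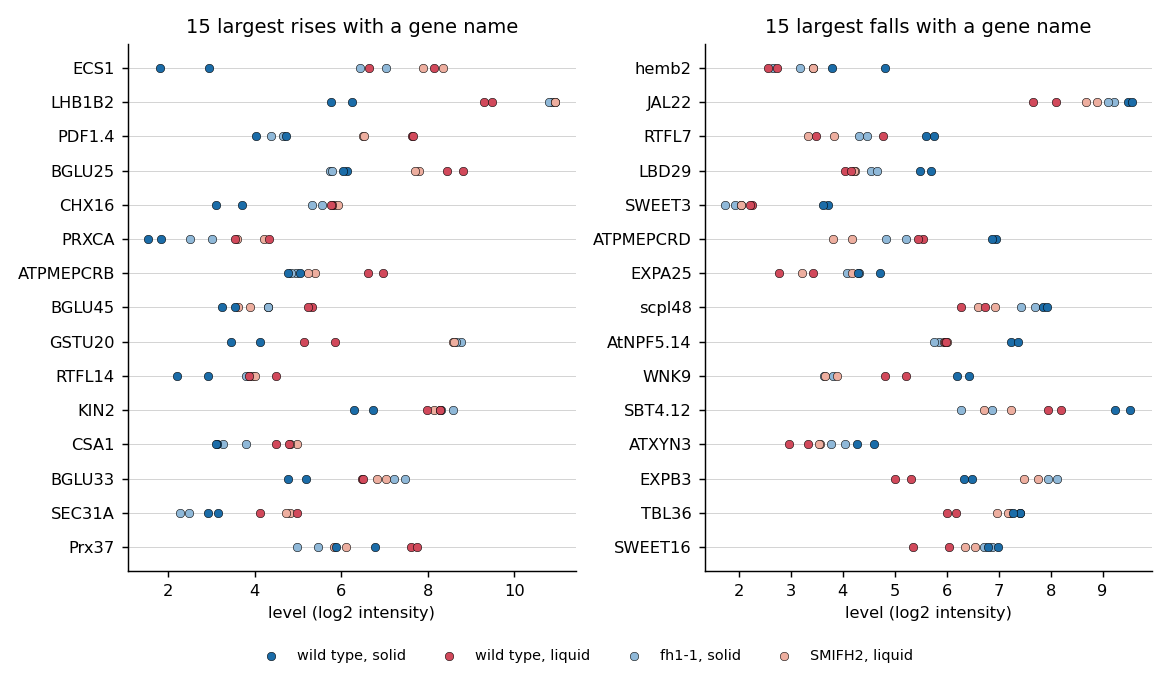
Level (log2 intensity) of the 15 largest rises and the 15 largest falls that carry a gene name, 1 point for each of the 8 arrays, coloured by group. The wild-type liquid and solid points do not overlap in any row because this was a condition for choosing the genes. The fh1-1 and SMIFH2 points take any place relative to them: ECS1 stands at 7.02 and 6.44 in fh1-1 on solid medium, and PDF1.4 at 4.36 and 4.65.

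The largest falls were those of the locus-code genes AT4G11190, from 9.45 and 9.51 on solid medium to 6.44 and 6.38 in liquid (-3.07 ± 0.22, limma adjusted p = 0.00016), AT4G37220 (-2.99 ± 0.23) and AT1G72140 (-2.37 ± 0.19). Among genes with a name, hemb2, which is named for a tetrapyrrole synthesis enzyme, fell by 1.66 ± 0.30 log2 units. The lectin gene JAL22 (AT2G39310) read 9.50 and 9.57 on solid medium and 7.65 and 8.11 in liquid, and fell by 1.65 ± 0.18. LBD29 (AT3G58190), an auxin-induced regulator of lateral root initiation, read 5.70 and 5.49 on solid medium and 4.05 and 4.16 in liquid, and fell by 1.49 ± 0.15 (limma adjusted p = 0.00085). For LBD29 the arrays of each group lay close together and the groups far apart.

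Transporters and wall enzymes were among the named falls. SWEET3 and SWEET16, of the SWEET family of sugar transporters, fell by 1.44 ± 0.15 and 1.2 ± 0.22. AtNPF5.14, of the nitrate and peptide transporter family, fell from 7.23 and 7.37 to 5.97 and 5.99. The pectin methylesterase ATPMEPCRD fell from 6.94 and 6.88 to 5.55 and 5.44, opposite to ATPMEPCRB. The expansins EXPA25 and EXPB3 fell by 1.41 ± 0.32 and 1.26 ± 0.17, ATXYN3, named as a xylanase, by 1.29 ± 0.19, and TBL36, of a family of wall O-acetyltransferases, by 1.25 ± 0.16. The others were RTFL7, a relative of RTFL14 (-1.54 ± 0.35), the carboxypeptidase-like scpl48 (-1.39 ± 0.20), the kinase WNK9 (-1.31 ± 0.19) and the subtilase SBT4.12 (-1.31 ± 0.24).

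The limma adjusted p of the 15 named falls lay between 0.00085 and 0.035. For 5 of them it rose above 0.05 when a wild-type array was left out. Without the second solid array the limma adjusted p was 0.056 for hemb2, 0.16 for RTFL7, 0.2 for EXPA25, 0.056 for SBT4.12 and 0.1 for SWEET16. Without the first solid array it was 0.1 for RTFL7, 0.068 for EXPA25 and 0.084 for SBT4.12. Without the second liquid array it was 0.081 for RTFL7, 0.16 for EXPA25, 0.077 for SBT4.12 and 0.052 for SWEET16, and without the first it was 0.064 for hemb2. It was also 0.058 for RTFL7 and EXPA25 without either fh1-1 array, and 0.051 for RTFL7 without either SMIFH2 array.

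Of the 8 measured photosystem and antenna genes, 4 rose and 0 fell, with a median change of 0.69 log2 units against -0.03 over all genes. Beside this and each later count of members stand the 2.22% of all genes that rose and the 2.48% that fell. The lists, marker lists included, were chosen with earlier results of these data known. Such counts therefore describe the members and give no independent support. Besides LHB1B2, PSBW of photosystem II read 8.63 and 8.36 on solid medium and 9.56 and 9.68 in liquid, a 2.18-fold rise. The photosystem I subunits PSAN and PSAE-1 rose 2.17-fold and 1.98-fold, with limma adjusted p of 0.004 and 0.0053. All 4 passed the test with any 1 of the 8 arrays left out. The changes of LHCB4.1, LHCB4.2 and PSBY were 0.33, 0.09 and 0.39, and that of LHCB4.3 was -0.34, none past the threshold. LHB1B2 thus changed more than the other 7 genes, whose changes ran from -0.34 to 1.13.

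Of the 7 Calvin cycle and photorespiration genes, 3 rose and 0 fell, with a median of 0.51. They were SBPASE (0.69 ± 0.15) and PRK (0.65 ± 0.14), which regenerate the carbon dioxide acceptor, and AT1G11860 (0.66 ± 0.16), of the glycine cleavage complex. RCA, the Rubisco activase, changed by 0.51 ± 0.14 (limma adjusted p = 0.078). These calls were near the threshold: 0 of the 7 passed without any 1 array except the first liquid wild-type array, without which 1 did. Without the second solid array, the limma adjusted p of SBPASE, PRK and AT1G11860 was 0.16, 0.12 and 0.18.

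Further thylakoid genes are given as examples; they were picked from the genes past the threshold after their values were seen, so their shared direction carries no weight. NdhL, a subunit of the chloroplast NDH complex, rose by 1.24 ± 0.16, TROL, which anchors ferredoxin reductase, by 0.99 ± 0.16, and CaS, a thylakoid calcium sensor protein, by 1.00 ± 0.17. CURT1A and CURT1C, which bend thylakoid membranes, rose by 0.76 ± 0.16 and 0.86 ± 0.15. Of the 63 measured genes of the plastid genome, 1 rose and 0 fell, beside 2.22% and 2.48% of all genes, with a median of 0.12. The gene that rose was rps18 of the plastid ribosome (0.93 ± 0.21). With 1 array left out, the limma adjusted p reached 0.062 for TROL (second solid array), 0.055 for CaS (first solid array), 0.072 for CURT1C (first solid array), and 0.14 for CURT1A and 0.17 for rps18 (second solid array).

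The levels in the other 4 arrays stood beside these changes. In fh1-1 on solid medium LHB1B2 read 10.88 and 10.80, PSBW 11.16 and 11.16, and PSAN 10.19 and 9.95, all above both liquid wild-type arrays. With SMIFH2 in liquid LHB1B2 read 10.94 and 10.94. The summed linear level of the 8 photosystem and antenna genes was 1418 and 1426 on the solid wild-type arrays, 3155 and 3049 on the liquid ones, and between 7651 and 8166 on the other 4. The solid wild-type arrays were thus the lowest of all 8 and the liquid wild-type arrays lay between them and the rest.

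**Figure D3:**
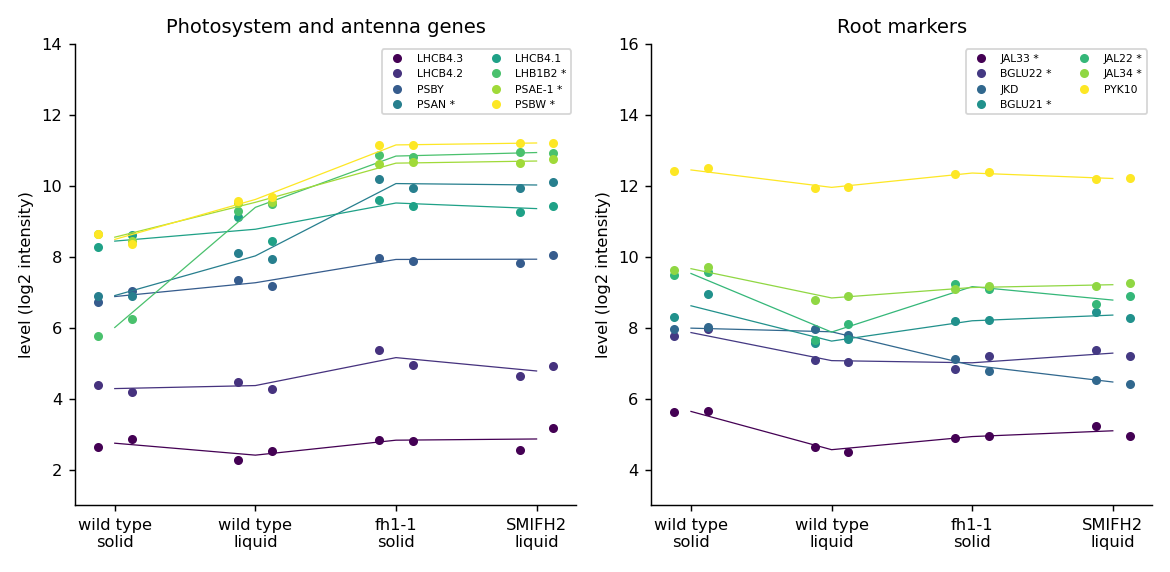
Level (log2 intensity) of the 8 photosystem and antenna genes (left) and the 7 root markers (right) in the 4 groups, with a point for each of the 2 arrays, lines through the group means and an asterisk for genes past the threshold in the wild-type comparison. LHB1B2 climbs from 5.77 and 6.26 on solid medium to 9.31 and 9.49 in liquid, and 5 of the 7 root markers fall.

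Markers of shoot and root tissue were counted beside the photosynthesis genes. Of 8 shoot markers, 4 rose and 0 fell, with a median of 0.58, but 4 of the 8 are also in the Calvin cycle list. Of the 4 outside it, 2 rose: YAB5 (1.03 ± 0.21) and YAB2 (0.88 ± 0.20), transcription factors of lateral shoot organs. The summed linear level of the 8 shoot markers was 1484 and 1454 on the solid wild-type arrays and 2089 and 2162 on the liquid ones. Most of it came from the genes shared with the Calvin cycle list: the 4 outside it summed to 183 and 200 against 253 and 302. Of 4 stomatal markers, 1 rose, the guard cell regulator FMA (0.92 ± 0.18), and the median was 0.39. Without the first or the second solid array or the second liquid array, 0 shoot markers passed, with limma adjusted p for YAB5 of 0.11, 0.083 and 0.094. Without any 1 of the fh1-1 or SMIFH2 arrays 1 passed, and without the first liquid array 2 did. Without any 1 of the 4 wild-type arrays, 0 stomatal markers passed.

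Of 7 root markers, 0 rose and 5 fell, with a median of -0.82. All but JKD, a regulator of root tissue patterning (-0.10), encode beta-glucosidases or lectins of the PYK10 group. JAL33 fell from 5.63 and 5.67 to 4.64 and 4.50, and JAL34 from 9.63 and 9.71 to 8.79 and 8.90. BGLU21 and BGLU22, neighbouring and closely related genes that are uncertain where probes share signal, fell by 0.99 ± 0.21 and 0.79 ± 0.17. PYK10 read 12.41 and 12.49 on solid medium and 11.95 and 11.97 in liquid, a change of -0.49 ± 0.14 (limma adjusted p = 0.082). NAI2, which is needed to form endoplasmic reticulum bodies and was chosen after its value was seen, fell by 0.92 ± 0.17. Without the second solid array 2 of the 7 root markers passed, and without either liquid array 3 did. NAI2 had a limma adjusted p of 0.074 without the first solid array and of 0.057 without the second liquid array.

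The summed linear level of the 7 root markers was 7776 and 8429 on the solid wild-type arrays and 5201 and 5358 on the liquid ones. Without PYK10, which did not pass, it was 2344 and 2658 against 1251 and 1338. The 4 root hair markers summed to 32.0 and 36.3 against 35.5 and 28.4. In whole seedlings, fewer cells of a type and less RNA per cell cannot be told apart. The part that the share of shoot and root tissue in a pool had in the photosynthesis and lectin changes was not tested.

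**Figure D4:**
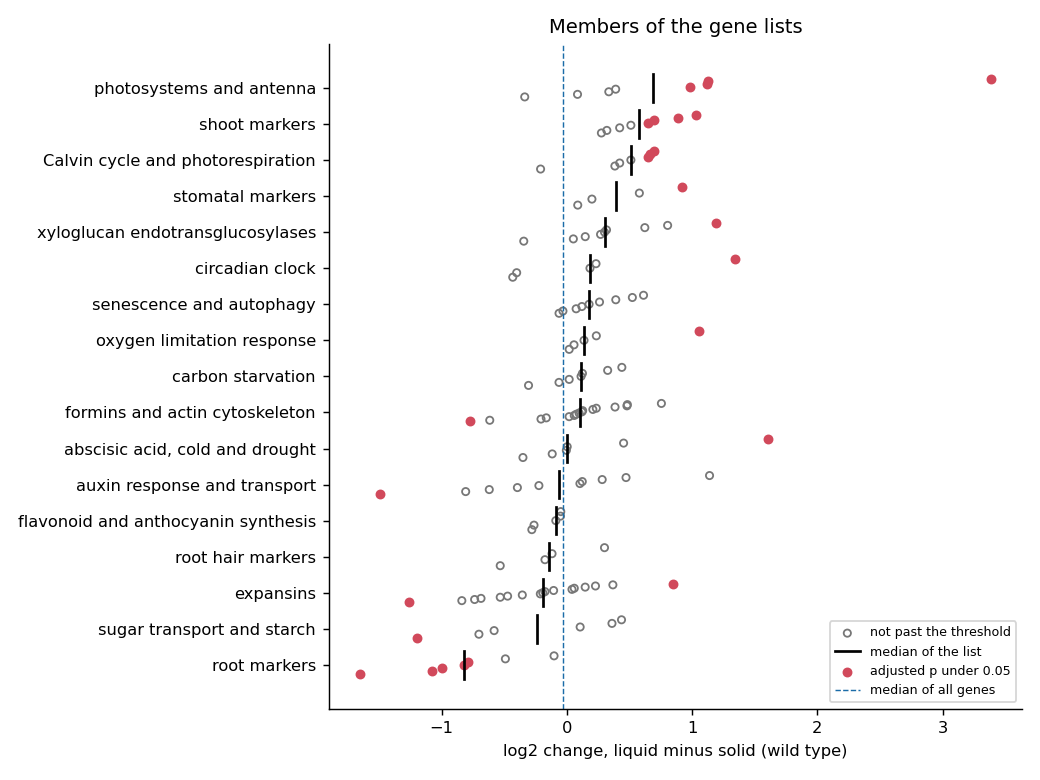
Log2 change (liquid minus solid, wild type) of every measured member of the lists with at least 5 members and of the stomatal and root hair markers; filled points passed an adjusted p under 0.05, black bars are list medians and the dashed line is the median of all genes. The root markers lie lowest, with a median of -0.82, and the photosystem and antenna genes highest, with a median of 0.69.

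Of 17 expansins and related genes, which loosen growing walls, EXPA16 rose (0.85 ± 0.16) and EXPB3 fell, beside 4.71% of all genes that passed. The list's median was -0.19. EXPA25, which also fell, is not in this list. Without the first liquid array 4 passed, 1 higher and 3 lower. EXPA16 had a limma adjusted p of 0.083 without the first solid array and of 0.073 without the second liquid array. Of 9 xyloglucan endotransglucosylases 1 rose, beside 2.22% of all genes, and the median was 0.30. It was XTH16, from 4.35 and 3.59 on solid medium to 4.95 and 5.38 in liquid. XTH16 had a limma adjusted p of 0.12 without the second solid array and of 0.11 without the second liquid array.

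GUT2, a subunit of xylan synthesis chosen after its value was seen, read 7.18 and 7.09 on solid medium and 6.06 and 6.18 in liquid, a fall of 1.01 ± 0.15 (limma adjusted p = 0.0048). The 24 measured TBL genes were a group chosen after the values were seen, so their count carries no weight. Of them 0 rose and 3 fell: TBL36, TBL33 (-1.03 ± 0.20) and TBL38 (-0.81 ± 0.15), with a median over the family of -0.07. Without the second solid array TBL38 had a limma adjusted p of 0.11, and without the first or the second liquid array of 0.054 and 0.065. TBL33 had one of 0.089 without the first solid array and of 0.081 without the second liquid array. GUT2 passed with any 1 of the 8 arrays left out.

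Of 22 measured genes whose symbol starts with BGLU, a group chosen after the values were seen that leaves out PYK10, 5 rose and 2 fell. BGLU25, BGLU45, BGLU33, BGLU44 (0.98 ± 0.15) and BGLU40 (0.83 ± 0.14) rose, and BGLU21 and BGLU22 of the root marker list fell. The median of the 22 was 0.04, and its changed members differed in direction. Without the second solid array BGLU40 had a limma adjusted p of 0.068. Of 14 SWEET genes, also a group chosen after the values were seen, 0 rose and 2 fell, beside 2.22% and 2.48% of all genes. SWEET11, which exports sucrose from leaf cells to the phloem, read 9.93 and 10.33 on solid medium and 9.52 and 9.34 in liquid (-0.70 ± 0.17, limma adjusted p = 0.053). In the list of 6 sugar transport and starch genes, SWEET16 alone passed and the median was -0.24. Without the first solid array 2 of the 6 passed, and without the second solid or the second liquid array 0 did.

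Single members of other lists passed, where 4.71% of all genes did so. CCL, a clock-controlled transcript, was 1 of 5 clock genes and read 9.20 and 9.36 on solid medium and 10.57 and 10.67 in liquid, a rise of 1.34 ± 0.15 (limma adjusted p = 0.0012). The clock gene GI changed by 0.23. PPDK, pyruvate orthophosphate dikinase, was 1 of 5 genes of the oxygen limitation list and rose by 1.06 ± 0.14, while PDC2, AlaAT1 and HRA1 of that list changed by 0.06, 0.02 and 0.24. KIN2 was 1 of 6 genes of the abscisic acid, cold and drought list, where COR15A and KIN1 changed by -0.12 and 0.00. LBD29 was 1 of 10 auxin response and transport genes, with a list median of -0.06, and without the first solid array 2 passed. Of 16 formin, actin and tubulin genes 1 passed, beside 4.71% of all genes, and the list's median was 0.11. It was ACT11, which fell (-0.77 ± 0.19, limma adjusted p = 0.045), a call that did not hold with any 1 array left out.

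In 19 lists or marker sets, limma called 0 members. Of 7 carbon starvation genes, 1 had an unadjusted limma p under 0.05 and the median was 0.11. Over all 16554 genes 3059 had one, so such counts in small lists say little. The counts at that unadjusted p were 3 of 9 for senescence and autophagy, 0 of 5 for flavonoid synthesis, 2 of 4 for gibberellin, brassinosteroid and cytokinin, and 1 of 3 each for light signalling and for the glyoxylate cycle. The 1 cuticle and wax gene, WSD1, changed by -0.71 ± 0.22. Leaving out 1 wild-type array brought 1 gene past the threshold in each of the cuticle, gibberellin, glucosinolate and glyoxylate lists. The count was 0 for strong light and oxidative stress (3 genes), heat shock proteins (1), iron and metal homeostasis (2), ethylene (2), jasmonate (2), touch (2), cell cycle and histones (3), endoplasmic reticulum folding (3), glucosinolates (3), late embryogenesis and seed storage (3), root hairs (4), and pollen and flower (3).

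SMIFH2-treated seedlings in liquid were set against fh1-1 seedlings on solid medium to see which wild-type changes recurred in a pair of groups with the same difference in medium but also with inhibitor and mutation. In that pair 24 genes passed, 19 higher and 5 lower in liquid, or 0.145% of those tested. This count was 0 without either fh1-1 array or without the second SMIFH2 array, and 5 without the first SMIFH2 array. Of the 24 genes, 15 had also passed in the same direction in the wild type, 12 higher and 3 lower, which is 62.5% of the shorter list and 1.93% of the 779. Both pairs were tested in 1 fit with the same estimate of the spread for each gene. A gene with a small estimate passes more easily in both, so the 2 sets of calls were not independent. The 368 wild-type rises had a median of 0.97 log2 units in the wild type and of 0.11 in the other pair. The 411 falls had medians of -0.94 and -0.09. These genes were selected by their wild-type change, which tends to enlarge the wild-type medians but not those of the other pair.

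The genes that recurred included PDF1.4, which read 4.36 and 4.65 in fh1-1 on solid medium and 6.5 and 6.54 with SMIFH2 in liquid. BGLU25 read 5.74 and 5.79 against 7.79 and 7.70. SEC31A rose by 2.4 ± 0.25 in that pair and by 1.51 in the wild type, and CSA1 by 1.36 ± 0.20 and 1.53. AT2G43620, AT1G66920 and AT1G44130 rose by 1.77, 1.71 and 2.37 in that pair. AT5G17090, AT5G15360 and AT5G10695 fell in both, by 1.52, 1.15 and 1.63 in that pair. AT4G12545 passed in opposite directions, at -0.98 ± 0.21 in the wild type and 1.62 ± 0.21 in the other pair.

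The difference between the liquid against solid changes of the 2 pairs passed the threshold for 123 genes, or 0.743% of those tested, with 64 more positive and 59 more negative in the wild type. Of the 779 wild-type calls, 114 passed this test, which uses the same wild-type values and so is not independent of those calls. LHB1B2 had the smallest adjusted p of the named genes: it changed by 3.38 in the wild type and by 0.10 ± 0.18 in the other pair, a difference of 3.29 ± 0.26 (limma adjusted p = 0.0016). BGLU45 rose in the wild type and read 4.3 and 4.3 in fh1-1 on solid medium against 3.62 and 3.89 with SMIFH2, a difference of 2.42 ± 0.24 (limma adjusted p = 0.008). For PDF1.4, BGLU25, CSA1 and SEC31A the difference did not pass (limma adjusted p of 0.11, 0.35, 0.88 and 0.34), with unadjusted 95% intervals of 0.58 to 1.95, 0.06 to 1.09, -0.45 to 0.79 and -1.67 to -0.10 log2 units. The count of 123 was 16 without the second wild-type solid array, 79 without the second wild-type liquid array and between 2 and 9 without any 1 of the fh1-1 or SMIFH2 arrays.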

How the data were processed

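Per the labels' protocols, NASC labelled the RNA of the seedling pools, hybridized it to Affymetrix arrays and scanned them. The table deposited by the authors holds log2 intensities from RMA, made in Affymetrix Expression Console 1.4, with Transcriptome Analysis Console 3.1 also named, per the submitters' processing notes. RMA normalizes all arrays to a shared distribution, so changes are relative to the bulk of genes. The genome build behind the probe annotation is not given in the sources used here.

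Of 38408 probe sets, 17504 were listed in the annotation, 758 of them with several genes. The 16746 with 1 gene gave 16554 genes, by the brightest probe set where a gene had several (163 genes). Of these, 16418 matched the RefSeq annotation TAIR10.1, used for names and gene order, and 1923 had a name other than a locus code. No clone name was taken as a gene name.

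Using limma 3.58.1 (R 4.3.3), 1 model was fitted to all 8 arrays (4 residual and 5.81 prior degrees of freedom), with Benjamini-Hochberg adjustment over all genes and a threshold of 0.05. The median SE of a log2 change was 0.178, a 95% half-width of 0.397; the number of arrays limits the precision. Steps were tested on simulated data. Plots were made by matplotlib 3.10.9 (Python 3.11.15).

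Members and lists were chosen with earlier results of these data known. Of 37 lists, 5 had 0 measured members (nitrate, phosphate, aquaporins, immune and salicylate, suberin) and 163 genes were measured in the rest. Named genes were the 15 largest rises and falls with a name, 3 each with a locus code only, and from each list up to 4 genes past the threshold and the gene of highest mean level; others are said to be chosen after their values were seen. Same-numbered arrays deviated together with correlations from -0.0553 to 0.0142, so repeat numbers do not pair arrays. Alternatives were other normalizations, filters, priors, thresholds, a replicate block and leaving out each array. Promoter motifs were not analysed here.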

Additional observations from a re-analysis of the deposited data

Results flagged for a closer look

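The change from solid to liquid medium differed between the wild-type pair and the pair of fh1-1 on solid medium and SMIFH2 in liquid for 123 genes in limma's test of the difference, at an adjusted p under 0.05. In that pair genotype and inhibitor differ together with the medium, so the difference cannot be told apart from either.

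Among the named genes, the wild-type change was the more positive by 3.63 log2 units for ECS1, 3.29 for LHB1B2, 3.28 for AT5G58390, 2.92 for AT5G42530, 2.42 for BGLU45, 1.95 for both CHX16 and BGLU33, 1.84 for KIN2, 1.48 for ATPMEPCRB, and 1.3 for both CCL and EXPA16. The limma adjusted p of these differences lay between 0.0016 for LHB1B2 and 0.046 for ECS1. Genes here and in the next paragraph were named for their wild-type change or list, and selection by that change tends to enlarge the difference.

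The wild-type change was the more negative by the following log2 differences: -2.25 for AT4G11190, -2.15 for AT4G37220, -1.89 for AT1G72140, -1.65 for SWEET3, -1.49 for AtNPF5.14 and -1.24 for JAL33, with limma adjusted p between 0.014 and 0.038. AtNPF5.14 stood at 5.86 and 5.75 in fh1-1 on solid medium and at 5.94 and 6.01 with SMIFH2, the level of the liquid wild type.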

How the results depend on the processing

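The count of 779 genes was 321 with only the 4 wild-type arrays in the fit, 351 with a 2-fold minimum and 255 at an adjusted p under 0.01, and ran from 284 to 599 with 1 array left out. With the repeat number as a replicate block it was 645. The count of 779 rose to 1083 with a trended robust prior and to 916 among the 11036 genes left after dropping those of lowest mean level. The share of called genes that were higher, 47.2%, was 56.3% over every probe set, 53.8% after cyclic loess and 51.4% at an adjusted p under 0.01, and ran from 44.3% to 54.3% with 1 array left out. The 24 genes of the SMIFH2 and fh1-1 pair became 15 with only its 4 arrays, 12 under the replicate block, 38 with a trended robust prior, 5 at an adjusted p under 0.01, and 0 over every probe set, where limma gave 2509 an unadjusted p under 0.05; they ran from 0 to 24 with 1 array left out. The 123 differences became 77 under the replicate block, 3 over every probe set, 296 with a trended robust prior and 7 at an adjusted p under 0.01, and ran from 2 to 117. Of the 53 named genes past the threshold, 34 passed under all 16 settings run for them, and 0 turned in sign. Of the 36 largest rises and falls, the 8 that did not are RTFL14, SEC31A, Prx37, hemb2, RTFL7, EXPA25, SBT4.12 and SWEET16. Of these 53, the fit on only the 4 arrays ended 13 calls (JAL34 at 0.062, Prx37 at 0.066, XTH16 and YAB5 at 0.087 and BGLU21 at 0.093 among them), every probe set 18, and leaving out 1 array 6 to 18. The replicate block ended the calls of EXPA25, PRK, AT1G11860, YAB2 and ACT11, at adjusted p from 0.05 to 0.07. The median change of all genes was -0.03 as deposited, 0.0025 after cyclic loess and -0.02 after quantile normalization. The search of promoters for motifs was not run.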

Other observations

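Genes next to each other in RefSeq order were looked at after the values were seen. Among 10260 pairs of neighbouring genes with both measured, the first gene had passed the threshold in 491 pairs, and in 39 of these, or 7.94%, the second had passed too, against 4.71% of all genes. In 29 of the 39 pairs both moved the same way, 14 higher and 15 lower in liquid. They included the lectins JAL33 and JAL34, BGLU21 and BGLU22, AT4G11190 and AT4G11210 at -3.07 and -2.31, AT5G24200 and AT5G24210 at 2.79 and 1.57, AT5G44570 and AT5G44572 at 1.93 and 3.09, and BGLU33 and AT2G32870 at 1.52 and 2.00. Whether probes of neighbouring copies share signal was not tested.

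Hormone, growth and nutrient genes outside the lists that passed the threshold, also chosen after their values were seen, included YUC6, an enzyme of auxin synthesis (-0.79 ± 0.18), and GH3.17, an enzyme that conjugates auxin (-0.74 ± 0.15). SIM, an inhibitor of the cell cycle in trichomes, fell from 6.31 and 6.43 on solid medium to 5.08 and 5.35 in liquid. CLE44, the precursor of a peptide that keeps vascular stem cells undifferentiated, rose by 0.91 ± 0.18, and GTR1, a glucosinolate transporter, by 0.83 ± 0.14. Of 10 measured genes with an NPF name, AtNPF3.1 and AtNPF4.3 rose by 0.89 ± 0.18 and 0.74 ± 0.15 while AtNPF5.14 fell. Members of that family under other names or locus codes are not counted. Several of these calls did not hold with 1 array left out. With 1 of the 4 wild-type arrays left out, the limma adjusted p was 0.1 to 0.17 for YUC6, 0.073 to 0.11 for GH3.17 and 0.06 to 0.097 for CLE44. It reached 0.059 for GTR1 and 0.098 for AtNPF3.1 without the first solid array, and 0.15 for AtNPF4.3 without the second. AtNPF3.1 had 0.17 with the mean of its probe sets, and SIM and AtNPF5.14 passed with any 1 of the 8 arrays left out. The 52 UGT genes, glycosyltransferases of small molecules, were also a group chosen after the values were seen. Of them 2 rose and 4 fell, beside 2.22% and 2.48% of all genes. Their median was 0.00.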
